A study of Mus musculus with 6 samples.

Results

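The miR-30 family of microRNAs was examined in exosomes released by RAW264.7 cells, an established mouse macrophage-like line. The family was taken as a fixed list of 7 mature names, and all 7 were found among the 598 miRNA names of the count table. The list holds 5 miRNAs from the 5′ arm of their hairpin (mmu-miR-30a-5p, mmu-miR-30b-5p, mmu-miR-30c-5p, mmu-miR-30d-5p and mmu-miR-30e-5p) and 2 from the 3′ arm (mmu-miR-30a-3p and mmu-miR-30e-3p). Of the 5 further family arms looked for, 4 were present (mmu-miR-30b-3p, mmu-miR-30c-1-3p, mmu-miR-30c-2-3p and mmu-miR-30d-3p). They are described beside the members and are counted apart from them.

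The study compared small RNA from 3 M0-exo samples with that from 3 M2-exo samples, asking how the miRNA cargo differs between exosomes of unstimulated and of polarized macrophages. All cells were labelled wild type RAW264.7. M0-exo came from cells that received no cytokine, and M2-exo from cells treated for 24 h with IL-4 and IL-13, each at 20 ng/mL. Exosomes were collected from the supernatant by ultracentrifugation, after the induced cells had been moved to serum-free medium. The samples come from 1 cell line and carry the same batch label, and nothing in the labels says that replicates were separate cultures. The p-values therefore rest on spread between these samples, which may be technical. In the main edgeR fit that spread was pooled over miRNAs of like level. Its p-values, SEs and intervals thus do not measure how far a single miRNA varied between replicates.

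With 1 entry kept per name, the libraries held between 860204 and 1453348 counts, of which the let-7 miRNAs and miR-98 made up 74.9 to 77.9%. Over all deposited entries they held between 1305522 and 2211009 counts. The floor of 3 counts corresponded to between 2.06 and 3.49 CPM, here counts scaled to equal library totals. The marker levels that follow are instead CPM scaled with TMM, a correction for differences in library composition. All 5 myeloid marker miRNAs, miR-155-5p and miR-223-3p among them, had more than 3 counts in every library. Their summed level was 1180 to 1520 CPM among M0-exo and 920 to 1170 CPM among M2-exo libraries. The markers did not move together. The log2 fold change of M2-exo over M0-exo in edgeR was -1.04 for miR-155-5p and -0.55 for miR-146a-5p. It was 1.60 for miR-223-3p, 0.45 for miR-142a-3p and 0.22 for miR-142a-5p. Of the blood, stromal and epithelial lists, 4 of 5, 3 of 5 and 3 of 6 markers were in the table. Of these, 2, 1 and 1, respectively, had more than 3 counts in every library. The blood markers reached 2620 CPM in 1 M2-exo library and had minima of 121 CPM in M0-exo and of 210 CPM among M2-exo libraries. Without the liver and serum miRNA miR-122-5p, they lay at 80.7 to 110 CPM among M0-exo and 81.5 to 133 CPM among M2-exo libraries. The stromal markers summed to 18.4 to 23.7 CPM among M0-exo and 34.8 to 74.3 CPM among M2-exo libraries, and the epithelial markers to 40.9 to 66.3 and 41.0 to 58.3 CPM. The part of these other sources in the values below was not tested.

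A miRNA is cut from a hairpin transcript by the nucleases Drosha and Dicer, which leaves a duplex of a 5p and a 3p strand. Argonaute usually keeps one strand as the guide and the other is degraded, although both strands of a hairpin can be retained. The guide pairs with messenger RNAs mainly through its seed, bases 2 to 8, and lowers their translation and stability. The miR-30 family is broadly expressed, and its 5p strands are known for restraining autophagy through Beclin 1, connective tissue growth factor in the heart and the transcription factor Snail1 in epithelia.

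The sequences are shown because the members differ outside the seed by few bases, which bears on how reads can be assigned to them. The 5p members are given as deposited, 5′ to 3′, with the seed in capitals.
mmu-miR-30a-5p: uGUAAACAuccucgacuggaag
mmu-miR-30d-5p: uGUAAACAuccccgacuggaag
mmu-miR-30e-5p: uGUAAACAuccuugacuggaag
mmu-miR-30b-5p: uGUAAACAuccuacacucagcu
mmu-miR-30c-5p: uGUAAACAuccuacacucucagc
The seed GUAAACA was held by these 5 names and by no other name in the table. With positions counted from 1 at the 5′ end and the base of the first-named miRNA written first, miR-30a-5p and miR-30d-5p differed by U12C alone, and miR-30a-5p and miR-30e-5p by C13U alone. miR-30d-5p and miR-30e-5p differed by C12U and C13U. miR-30b-5p and miR-30c-5p shared their leading 18 bases. A read with 1 sequencing error, or one shortened at its 3′ end, can therefore match more than 1 member, and the deposited counts of these names were treated as uncertain to that extent.

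The 3′ arms fell into separate seeds, shown in capitals for the members and for the other arms on which the comparison turned.
mmu-miR-30a-3p: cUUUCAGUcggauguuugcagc
mmu-miR-30e-3p: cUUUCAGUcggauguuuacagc
mmu-miR-30d-3p: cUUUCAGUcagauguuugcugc
mmu-miR-30b-3p: cUGGGAUGuggauguuuacguc
mmu-miR-30c-1-3p: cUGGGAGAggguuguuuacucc
mmu-miR-30c-2-3p: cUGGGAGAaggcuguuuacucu
miR-30a-3p and miR-30e-3p shared the seed UUUCAGU with miR-30d-3p and differed from each other by G18A. miR-30c-1-3p and miR-30c-2-3p shared the seed UGGGAGA with miR-6958-5p, a name outside the family, and differed from each other by G9A, U12C and C22U. The seed of miR-30b-3p, UGGGAUG, was held by no other name in the table. The GC content of the 11 miRNAs lay between 40.9 and 54.5%.

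A pair of hairpins is shown from RefSeq, build GRCm38.p6, with the mature arms in capitals, because the ratios of their arms are compared further on. The submitters' processing notes name mm39, so these positions are not those of the deposited counts.
Mir30a: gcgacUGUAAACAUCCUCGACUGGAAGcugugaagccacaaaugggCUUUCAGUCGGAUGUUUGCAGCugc
Mir30c-1: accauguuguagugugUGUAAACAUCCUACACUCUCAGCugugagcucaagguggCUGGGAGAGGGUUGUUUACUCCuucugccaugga
Mir30a lies on the plus strand at chr1:23272269-23272339. Mir30c-2 lies on the same strand at chr1:23291701-23291784, in an exon of the long noncoding RNA gene Gm27028. Mir30c-1, at chr4:120769534-120769622, and Mir30e, at chr4:120772606-120772697, lie on the minus strand in introns of Nfyc, which encodes a subunit of the transcription factor NF-Y and is read from the same strand. The sequences of 7 of the 11 miRNAs, 5 of them members, matched a RefSeq entry. Mir30b and Mir30d are named only. miR-30c-5p can come from both Mir30c-1 and Mir30c-2, and the table gave it the same counts under each.

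The family was an intermediate component of the cargo, and miR-30d-5p supplied most of it. With 1 entry kept per name, the 7 members held 97572 of the 6239501 counts, or 1.56%, and 6.69% of the counts outside the let-7 group. miR-30d-5p alone made up 70.8% of the members' counts and ranked 12th of 598 names by total count. miR-30a-5p ranked 32nd, miR-30a-3p 40th, miR-30e-5p 59th, miR-30e-3p 66th, miR-30c-5p 102nd and miR-30b-5p 137th. Within the summed 5p members, miR-30d-5p took 78.9 to 81.9% in each library, miR-30a-5p 12.3 to 14.4%, miR-30e-5p 4.4 to 6.16%, miR-30c-5p 0.928 to 1.16% and miR-30b-5p 0.259 to 0.563%. The order of these shares was the same in all 6 libraries, and the share of miR-30b-5p varied most in proportion.

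The order of the 7 members was the same in M0-exo and M2-exo, and the ranges of neighbouring members did not overlap within a group. Levels below are CPM scaled with TMM, a correction for differences in library composition. In M0-exo, miR-30d-5p averaged 10319 ± 391 CPM (SD, n = 3), which was 6.21 times miR-30a-5p at 1661 ± 62.3 CPM. The smallest step between neighbouring members in M0-exo was the 1.34-fold step from miR-30a-5p to miR-30a-3p. The other 3′ arms lay between miR-30e-3p and miR-30b-5p, except miR-30d-3p, which was the lowest of the 11 in both groups. In M0-exo the ranges of miR-30c-1-3p and miR-30b-3p overlapped, as did those of miR-30c-2-3p and miR-30c-5p. In M2-exo the ranges of miR-30c-5p and miR-30c-1-3p overlapped, as did those of miR-30c-1-3p and miR-30c-2-3p. Ligation and amplification differ between sequences, so a ratio of levels between miRNAs is one of sequenced reads.

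**Figure D1:**
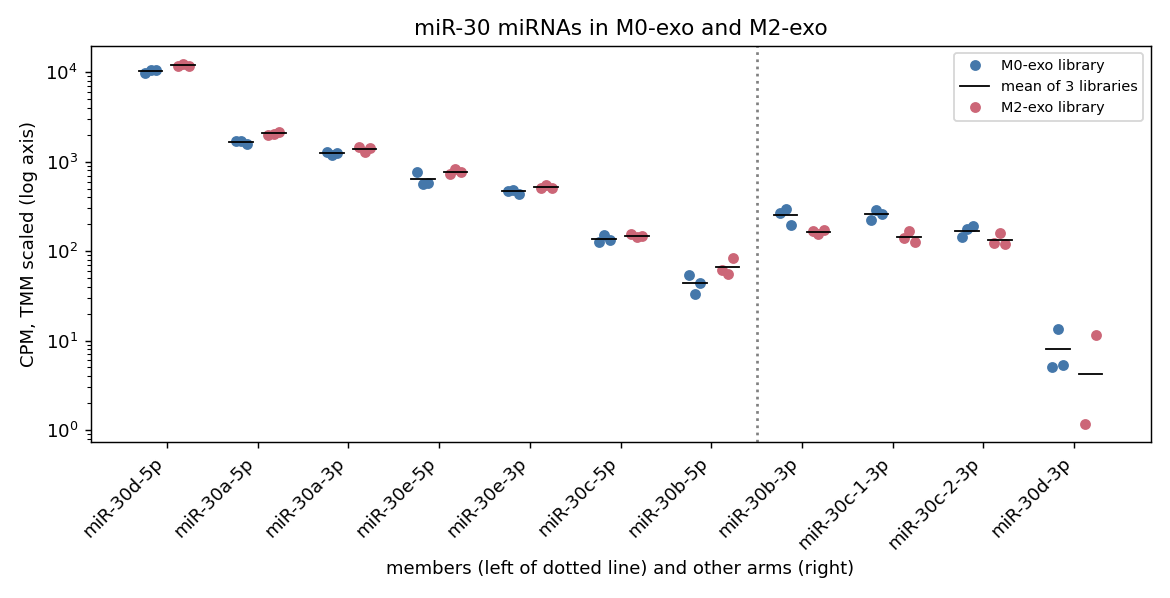
Level of each miR-30 miRNA in CPM scaled with TMM (log axis) in the 3 M0-exo (blue) and 3 M2-exo (red) libraries, with black bars at the group means and a dotted line between the 7 members and the 4 other arms. miR-30d-5p stood at a mean of 10319 CPM in M0-exo against 11968 CPM in M2-exo, and the 1 M2-exo library with 0 counts of miR-30d-3p is not drawn.

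None of the 7 members passed the study's thresholds between M0-exo and M2-exo, a log2 fold change of 0.5 or more in either direction with an unadjusted p below 0.05. Over all 598 names, edgeR called 60 miRNAs, or 10%, with 22 higher and 38 lower in M2-exo. Of the 241 names with a mean of at least 10 counts, 52 were called. The count for the members was also 0 by DESeq2 and by limma. At an unadjusted p below 0.05 alone, edgeR gave 3 members (miR-30a-5p, miR-30d-5p and miR-30e-5p), DESeq2 gave 2 and limma gave 0. The share of all names at that cut was not recorded, so these counts have no background beside them. No member had an adjusted p below 0.05 in edgeR, against 8.86% (53) of all names. DESeq2 gave 2 (miR-30a-5p and miR-30d-5p), against 50 of the 598 names.

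With TMM scaling the fitted log2 fold change was above 0 for 7 of 7 members, with a median of 0.21, against 51.0% of all names and a median of 0.03. With scaling by library total only it was above 0 for 3 of 7, with a median of -0.0026 against -0.18 over all names, so the direction of miR-30c-5p, miR-30d-5p, miR-30a-3p and miR-30e-3p turned. Between the scalings the median of all names moved about as far as the members' median did, and the members' median stood above that of all names under both. For 4 of 7 members every M2-exo library lay above every M0-exo library with TMM. This held for 9.53% of all names, and for 43 of the 241 names with a mean of at least 10 counts. By library total only it held for 0 of 7 members, against 4.68% of all names. These are shares of sequenced reads, and more of a miRNA per vesicle cannot be told apart from more of the vesicles that carry it or from less of other small RNA.

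The most abundant 5p strands, miR-30d-5p and miR-30a-5p, had the narrowest intervals. miR-30d-5p measured 9869, 10506 and 10580 CPM in M0-exo, against 11817, 12404 and 11682 CPM in M2-exo. The groups did not overlap, and the M2-exo mean was 11968 ± 384 CPM (SD, n = 3). The log2 fold change in edgeR was 0.21 with an SE of 0.0825 (95% interval 0.05 to 0.38, adjusted p = 0.0891). The interval lies below the threshold of 0.5. By library total only the fold change was -0.0026.

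miR-30a-5p, the family member best known for targeting Beclin 1, was recorded at 1688, 1704 and 1589 CPM in M0-exo against 2001, 2065 and 2139 CPM in M2-exo. Its M2-exo mean was 2068 ± 69.5 CPM (SD, n = 3), and the groups did not overlap. The log2 fold change was 0.32 with an SE of 0.111 (95% interval 0.10 to 0.54, edgeR adjusted p = 0.0504). Over the 16 other settings tried the log2 fold change ran from 0.07 (limma) to 0.37 (without the let-7 miRNAs and miR-98), and the adjusted p from 0.0104 to 0.773, so the side of 0.05 on which it fell depended on the setting. By library total only the log2 fold change was 0.10 and the groups overlapped, with 1850 CPM at the highest in M0-exo and 1820 CPM at the lowest in M2-exo.

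miR-30e-5p, which shares the 5p seed and is encoded within Nfyc, gave 770, 570 and 574 CPM in M0-exo against 720, 835 and 760 CPM in M2-exo. The groups overlapped because M0-exo replicate 1 lay above 2 of the M2-exo libraries. The log2 fold change was 0.27 with an SE of 0.137 (95% interval 0.01 to 0.54, edgeR adjusted p = 0.319). Without M0-exo replicate 1 the log2 fold change was 0.43 with an adjusted p of 0.0334 in edgeR, still under 0.5. It was 0.20 without M0-exo replicate 2, M0-exo replicate 3 or M2-exo replicate 2, with unadjusted p-values in edgeR of 0.207, 0.195 and 0.22, respectively. It was 0.11 with an offset for GC content, 0.06 by library total only and 0.04 by limma.

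The lowest 5p strands were miR-30c-5p and miR-30b-5p, for which counting error weighed most. miR-30c-5p had 197, 188 and 123 counts in M0-exo against 132, 120 and 130 counts in M2-exo, or 136 ± 12.5 and 149 ± 5.35 CPM (SD, n = 3 each), and the groups overlapped. Its log2 fold change was 0.13 with a 95% interval from -0.33 to 0.59. miR-30b-5p had 85, 42 and 41 counts in M0-exo against 53, 46 and 73 counts in M2-exo, or 44.0 ± 10.4 and 66.9 ± 14.8 CPM. It was the only member with a log2 fold change past 0.5, at 0.60, but the 95% interval ran from -0.12 to 1.33 (edgeR, unadjusted p = 0.104, adjusted p = 0.474). The CPM of the groups did not overlap, although the highest M0-exo value of 54.4 lay close to the lowest M2-exo value of 55.1. Without M0-exo replicate 1 its log2 fold change was 0.79 with an unadjusted p of 0.0462 in edgeR, past both thresholds, while the adjusted p was 0.284. The log2 fold change fell under 0.5 without M0-exo replicate 2 (0.44), without M2-exo replicate 3 (0.41), with the GC offset (0.43), by library total only (0.38) and by limma (0.35).

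The 3p members, the strands opposite miR-30a-5p and miR-30e-5p, did not pass either threshold. miR-30a-3p stood at 1286, 1189 and 1242 CPM in M0-exo against 1460, 1283 and 1420 CPM in M2-exo, with overlapping groups. Its log2 fold change was 0.16 with a 95% interval from -0.07 to 0.40. miR-30e-3p stood at 474, 485 and 434 CPM in M0-exo against 509, 543 and 504 CPM in M2-exo, without overlap. Its log2 fold change was 0.16 with a 95% interval from -0.14 to 0.46. Both intervals span 0 and lie below 0.5.

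**Figure D2:**
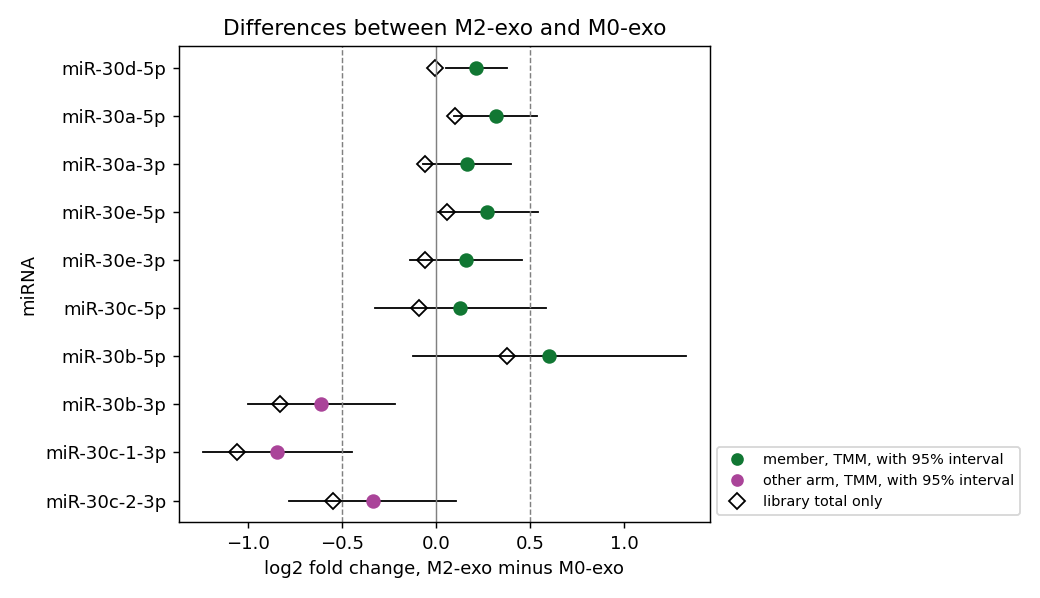
Log2 fold change of M2-exo over M0-exo in edgeR for the 7 members (green) and 3 other arms (purple), with lines for the 95% interval, open diamonds for scaling by library total only and dashed lines at the threshold of 0.5 in either direction. The members lay between 0.13 and 0.60 with TMM, while miR-30b-3p and miR-30c-1-3p lay at -0.61 and -0.84, and every diamond sits to the left of its circle.

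The 3p strands opposite miR-30b-5p and miR-30c-5p went the other way. miR-30c-1-3p fell from 225, 289 and 262 CPM in M0-exo to 140, 167 and 126 CPM in M2-exo, with no overlap. The log2 fold change was -0.84 with an SE of 0.202 (95% interval -1.24 to -0.45, edgeR adjusted p = 0.000614), and it was called in each of the 16 other settings. miR-30b-3p fell from 268, 292 and 194 CPM to 169, 155 and 172 CPM, also with no overlap. Its log2 fold change was -0.61 with an SE of 0.198 (95% interval -0.998 to -0.22, edgeR adjusted p = 0.0263), and its adjusted p ran from 0.00121 to 0.242 over the other settings. Without M0-exo replicate 2, the highest library, the log2 fold change of miR-30b-3p was -0.49 with an unadjusted p of 0.0317, so it missed the fold threshold. With both, 2 of the 4 other arms were called lower in M2-exo, against 6.35% of all names. In the fit limited to the 241 names with a mean of at least 10 counts, 33 names were called lower, these 2 arms among them. Without M2-exo replicate 3, the library with the highest blood marker level, 2 other arms and 0 members were called. The blood marker miR-122-5p also stood higher in M2-exo replicates 1 and 2, at 160 and 128 CPM, than in M0-exo, at 40.3 to 54.8 CPM. Leaving out replicate 3 therefore does not remove that difference, and the part of blood miRNAs in these calls was not tested.

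miR-30c-2-3p, which shares its seed with miR-30c-1-3p, measured 145, 176 and 189 CPM in M0-exo against 122, 161 and 121 CPM in M2-exo, and the groups overlapped. Its log2 fold change was -0.34 with an SE of 0.226 (edgeR adjusted p = 0.511), and it passed the study's thresholds only by library total only and by limma, at -0.55 and -0.58. miR-30d-3p had 8, 17 and 5 counts in M0-exo against 1, 0 and 10 counts in M2-exo, too few to compare at this depth. Over all libraries it had 41 counts against 69069 of miR-30d-5p, or 0.0593%. The miR-30 hairpins thus ranged from one almost without 3p reads to one with mostly 3p reads.

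The ratio of 5p to 3p counts within a library does not depend on the scaling, and it separated the hairpins. For miR-30a it was 1.31, 1.43 and 1.28 in M0-exo against 1.37, 1.61 and 1.51 in M2-exo. For miR-30e it was 1.62, 1.18 and 1.32 in M0-exo against 1.41, 1.54 and 1.51 in M2-exo. Both hairpins gave more 5p than 3p reads in every library, and in both the groups overlapped. The difference in mean log2 ratio was 0.16 for miR-30a (two-sided exact permutation test, p = 0.2, adjusted over the 2 hairpins 0.4) and 0.13 for miR-30e (p = 0.5, adjusted 0.5). The smallest p that 3 against 3 libraries allow is 0.1.

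The other 3 ratios were tested after their values had been seen. miR-30b gave more 3p than 5p reads in every library, with a ratio of 0.203, 0.115 and 0.228 in M0-exo against 0.368, 0.357 and 0.487 in M2-exo. For miR-30c-1 the ratio was 0.561, 0.519 and 0.504 in M0-exo against 1.1, 0.863 and 1.18 in M2-exo. For miR-30c-2 it was 0.868, 0.855 and 0.699 in M0-exo against 1.27, 0.896 and 1.23 in M2-exo. In these 3 hairpins every M2-exo library lay above every M0-exo library, which held for 8 of the 51 hairpins (15.7%) with both arms at a mean of 10 counts or more, these 3 among them. The differences in mean log2 ratio were 1.20, 0.98 and 0.48, each with p = 0.1 in the two-sided exact permutation test, the smallest value possible, and 0.1 after adjustment over the 3. The miR-30c ratios each use all miR-30c-5p counts, which cannot be divided between the hairpins, so the ratios are not independent and overstate the 5p side of each. Against both 3p arms summed, miR-30c-5p gave 0.341, 0.323 and 0.293 counts per 3p count in M0-exo and 0.589, 0.44 and 0.602 per 3p count in M2-exo, so 3p reads were in excess in all 6 libraries.

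**Figure D3:**
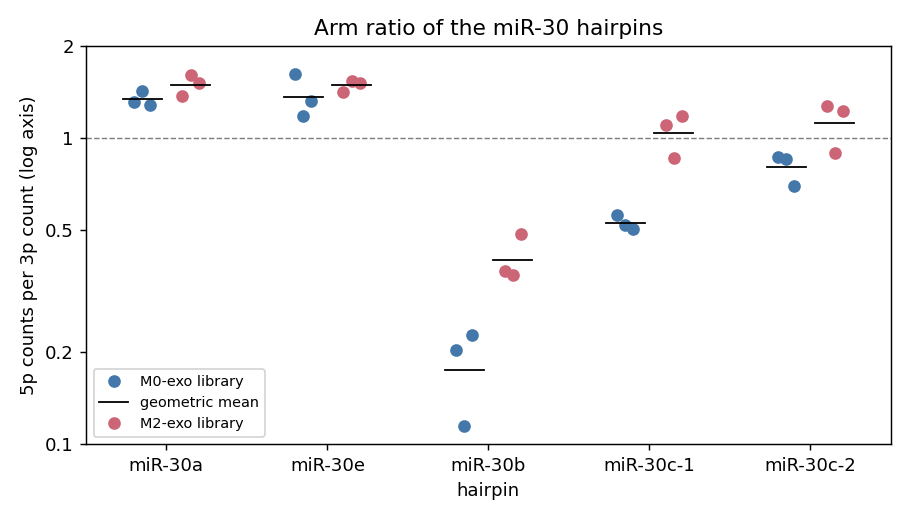
Counts of the 5p miRNA per count of the 3p miRNA (log axis) for 5 miR-30 hairpins in the 3 M0-exo (blue) and 3 M2-exo (red) libraries, with black bars at the geometric mean and a dashed line at equal counts. miR-30a and miR-30e sit between 1.18 and 1.62 in all libraries, whereas miR-30b runs from 0.115 to 0.487 and its groups are apart.

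The table held 51 hairpins whose arms both averaged at least 10 counts, and 24 of them (47.1%) had more 3p than 5p reads. The change in log2 arm ratio over these hairpins had a median of -0.11 and quartiles of -0.69 and 0.41. It was above 0 for 25 of the 51. Ordered from the most positive change, miR-30b was 2nd, miR-30c-1 3rd, miR-30c-2 11th, miR-30a 22nd and miR-30e 23rd. The miR-30a and miR-30e hairpins thus lay near the middle of the table, with miR-30b and miR-30c-1 near its upper end.

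**Figure D4:**
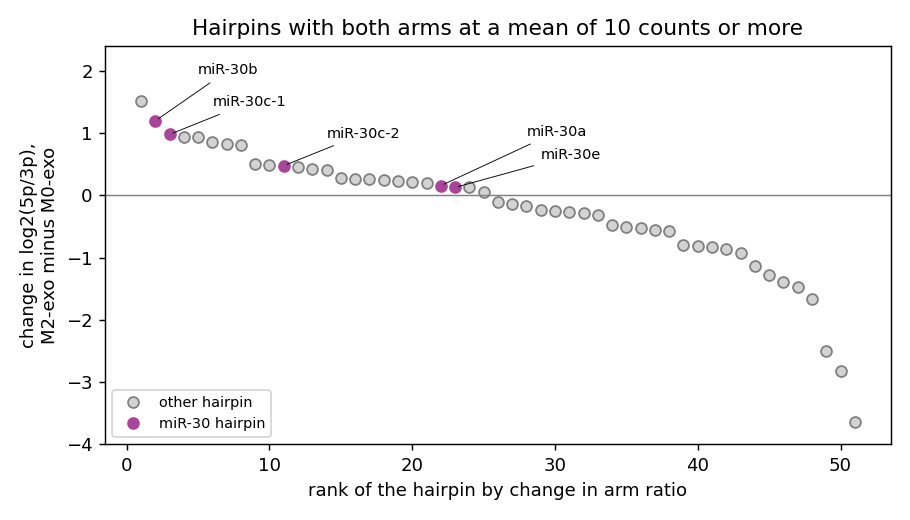
Change in log2(5p/3p) from M0-exo to M2-exo for 51 hairpins, each point 1 hairpin ordered by its change, with the 5 miR-30 hairpins in purple. miR-30b and miR-30c-1 stand at 1.20 and 0.98, while miR-30a and miR-30e stand at 0.16 and 0.13.

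The summed 5p members made up 1.34, 1.4 and 1.39% of the library in M0-exo, against 1.34, 1.5 and 1.34% in M2-exo. The log2 difference of the group means was 0.01, within the spread between replicates (SD 0.0719). It was 0.10, past that SD, when the let-7 miRNAs and miR-98 were left out of the denominator. Reads that could be exchanged between near-identical members were also summed and refitted. With TMM scaling, the sum of miR-30a-5p, miR-30d-5p and miR-30e-5p had a log2 fold change of 0.25, and that of miR-30b-5p and miR-30c-5p one of 0.28. Unlike the 0.01 above, which is a difference in shares of the library total, these values depend on the TMM factors. No interval was recorded for them. A sum is the same however its reads are split, so these values describe the sums and not any single member. Whether the direction of a single member depended on the split was not tested.

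The miRNAs whose TMM-scaled pattern over the 6 libraries was nearest to that of the summed 5p members were miR-23b-3p, miR-130b-3p and let-7b-5p. Their root mean square differences from it, in log2 CPM after centring, were 0.0582, 0.0666 and 0.0707, among 138 other names with a mean of at least 50 counts. None of the 3 was called in edgeR, with log2 fold changes of 0.28, 0.28 and 0.12, which their choice by likeness largely set in advance. The likeness is a description over libraries that share the same scaling factors.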

How the data were processed

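Small RNA libraries were prepared from total RNA with a NEBNext kit. The authors deposited raw counts per mature miRNA and precursor, with RPM values checked to be the counts scaled to the total of all 638 entries (within 0.01) and not used for the main test. The submitters' notes name mm39, and the aligner, counting tool and miRNA release are not given in the sources used here. No molecular identifiers are described, and the floor of 3 counts covers counting error only. The p-values, SEs and intervals of the main edgeR fit also include a spread between libraries. It was pooled over miRNAs of like level and was not each miRNA's own. Thus miR-122-5p, with 137, 107 and 2184 counts in M2-exo, still had an SE of only 0.179.

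Where a name had several entries, the one with most counts stood for it. All 598 names were fitted with edgeR 4.0.16 in R 4.3.3 (TMM, glmQLFit, glmQLFTest, no covariates), and p-values were adjusted over all names by Benjamini-Hochberg. Standard errors were taken from the F statistic. The alternatives were DESeq2 1.42.0, limma 3.58.1 on log2(RPM + 1), other scalings, a mean of at least 10 counts, all entries, a robust prior, a replicate block and each library left out. An offset for GC content, the tests of the other arms and the arm ratios of miR-30b and miR-30c were added after the data had been seen. Arm ratios were tested by exact permutation in Python 3.11.15 with scipy 1.17.1. Replicates differed by more than sampling noise (chi-square per degree of freedom 7.28 to 29.6), so each counted as 1 sample. The fit was checked on simulated counts with known changes, drawn from its own dispersion trend. That check could not show how the p-values behave for a miRNA whose spread departs from the trend.

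The named miRNAs were the 7 members, the other arms of their hairpins, names sharing a seed with these, the 3 names most like the summed 5p members and marker miRNAs. The members and lists were chosen with earlier results of these data known. Sequences came from the deposited table and RefSeq (GRCm38.p6), and host genes from GENCODE on GRCm38. Figures were drawn with matplotlib 3.10.9.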

Additional observations from a re-analysis of the deposited data

How the results depend on the processing

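The count of members called was 0 in each setting except without M0-exo replicate 1, so it ran from 0 to 1 when single libraries were left out. The count of other arms called ran from 1 to 2 in that way, with 1 when M0-exo replicate 2 was left out. The count of members with an adjusted p below 0.05, 0 as reported, was 2 with DESeq2, 2 with a mean of at least 10 counts, 2 without the let-7 miRNAs and miR-98, 1 with all deposited entries and 0 to 2 with single libraries left out. Directions turned with library totals only and with limma on log2(RPM + 1), respectively: miR-30c-5p at -0.0889 and -0.1127, miR-30d-5p at -0.0026 and -0.033, miR-30a-3p at -0.0566 and -0.0853, and miR-30e-3p at -0.0573 and -0.0865, and miR-30c-5p turned to -0.011 with the GC offset. The summed 5p share moved from 0.01 to 0.10 (log2) when let-7 was left out of its denominator. Over all names, 50 to 74 miRNAs were called under the alternatives, with 10 higher and 63 lower by library total only and 11 and 60 by limma, against 22 and 38 as reported. Same-numbered libraries did not deviate together (correlations -0.0422, 0.0174 and -0.0469 over 241 miRNAs, with 0 of 6 libraries nearest to their own number), so the numbers were not taken as pairs. With the replicate block, 56 miRNAs and 0 members were called and 1 member, miR-30a-5p, had an adjusted p below 0.05 (edgeR, 0.0487). The causes were not tested. Depth limits miR-30b-5p and miR-30d-3p most.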
